A study of Mus musculus with 12 samples.

Results

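Leukocyte adhesion genes, 9 in all, were followed in mouse skin: the endothelial selectin Sele, the endothelial immunoglobulin-family genes Icam1, Icam2, Vcam1 and Pecam1, the leukocyte selectin ligand Selplg, and the beta2 integrin genes Itgal, Itgam and Itgb2. These 9 genes were taken by name from the 561 gene probes of a NanoString mouse immunology panel, on which each has 1 probe. Of these, 8 entered the tests, among the 451 probes that were read above background often enough. The ninth, Selplg, was below background in all 12 libraries. The cell roles given here are textbook ones, and the cells that made each RNA in whole skin were not identified.

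Each of the 12 libraries was made from total RNA of the frozen skin of 1 female mouse, in 3 groups of 4. All mice had received 10000000 CD4+ OT2 T cells that had been skewed towards Th2 and cultured for 10 days, so the littermates carry the transferred cells too. Skin was taken when disease first appeared, at about 3 to 4 weeks, from lesions in diseased mice and from like sites in littermates. The study asked how losing Merkel cells, the touch receptor cells of the epidermis, bears on this model of cutaneous lupus erythematosus (CLE).

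Merkel het CLE mice were rtTA+K5TGO+ and Atoh1flox/wt K14Cre+. The labels say that they express the autoantigen and have lost 50% of their Merkel cells, with Cre under K14 control. Replicates 1 and 2 are labelled TLR9wt/wt and replicates 3 and 4 TLR9ko/ko, and their skin disease scores were 3, 2, 2 and 2.5. CLE mice were rtTA+K5TGO+TLR9ko/ko mice of the parental strain that keep their Merkel cells, with scores of 2.5, 1, 1 and 3. Littermates scored 0 and lacked rtTA, K5TGO or both. Of these, littermate 1 was rtTA-K5TGO-TLR9ko/wt Atoh1flox/flox K14Cre-. Littermate 2 was rtTA-K5TGO+TLR9ko/ko Atoh1wt/wt K14Cre-. Littermate 3 was rtTA-K5TGO+TLR9ko/ko Atoh1flox/wt K14Cre+ and is labelled as having lost 50% of its Merkel cells. Littermate 4 was rtTA+K5TGO-TLR9ko/ko Atoh1flox/flox K14Cre+ and is labelled as having lost all of them. The series' own design text describes every recipient as lacking TLR9, which differs from these labels for 3 mice. The TLR9 genotype is therefore not the same within the Merkel het CLE group or among littermates.

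Leukocytes leave the blood in steps. E-selectin, the product of Sele, appears on inflamed endothelium and catches passing leukocytes through sugars on PSGL-1, the product of Selplg. Chemokines then switch on the beta2 integrins, each an alpha chain paired with the common beta chain CD18 (Itgb2): LFA-1 with the alpha chain of Itgal and Mac-1 with that of Itgam. LFA-1 binds ICAM-1 and ICAM-2, Mac-1 binds ICAM-1 among other ligands, and VCAM-1 is bound by the integrin VLA-4. PECAM-1, at endothelial junctions, takes part in the passage between endothelial cells. ICAM-2 and PECAM-1 are present on resting endothelium, whereas E-selectin, VCAM-1 and much of ICAM-1 are induced by inflammatory cytokines.

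The promoters of 3 of the 9 genes, Sele, Icam1 and Itgam, were matched by symbol in the RefSeq promoter table of build GRCm38.p6. They are shown because Sele and Icam1 are textbook cytokine-induced endothelial genes and Itgam is a myeloid one. Each runs 5′ to 3′ on the + strand, from 250 bases before to 50 after the annotated start. The intervals are chr1:164047984-164048283 for Sele, chr9:21015690-21015989 for Icam1 and chr7:128062390-128062689 for Itgam. Capitals in Sele mark a joined GGANATTCC and TTCNNNGAA match and a TATAAA. In Icam1 they mark GGANATTCC, TTCNNNGAA and TATAAA in that order, and in Itgam they mark GAGGAA or its reverse complement.
Sele: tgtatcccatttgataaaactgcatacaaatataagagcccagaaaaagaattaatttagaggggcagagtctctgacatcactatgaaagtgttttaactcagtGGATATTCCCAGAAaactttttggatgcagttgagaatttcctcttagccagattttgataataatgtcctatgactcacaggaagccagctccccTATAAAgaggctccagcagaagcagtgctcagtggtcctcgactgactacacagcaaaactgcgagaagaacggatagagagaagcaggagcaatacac
Icam1: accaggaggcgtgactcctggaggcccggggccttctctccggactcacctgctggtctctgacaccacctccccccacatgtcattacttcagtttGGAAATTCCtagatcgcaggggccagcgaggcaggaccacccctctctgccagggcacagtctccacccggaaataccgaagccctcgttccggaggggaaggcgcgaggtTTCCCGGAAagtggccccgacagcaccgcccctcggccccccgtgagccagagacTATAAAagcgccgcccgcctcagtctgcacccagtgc
Itgam: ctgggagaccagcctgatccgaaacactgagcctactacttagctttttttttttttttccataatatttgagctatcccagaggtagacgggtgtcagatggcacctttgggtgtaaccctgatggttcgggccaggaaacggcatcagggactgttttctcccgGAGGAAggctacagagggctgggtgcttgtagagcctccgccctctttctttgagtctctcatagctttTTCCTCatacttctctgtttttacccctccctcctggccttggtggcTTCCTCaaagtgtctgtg

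A search on both strands found GGANATTCC, letters of the NF-kB kind, 145 bases before the start in Sele and 153 bases before it in Icam1. It was absent from the Itgam window. Of 32851 promoters of the same length, 0.931% hold these letters. The letters TTCNNNGAA, of the STAT kind, stand 140 bases before the start in Sele, where they overlap GGANATTCC, and 42 bases before it in Icam1; 8.30% of promoters hold them. TATAAA lies 49 bases before the annotated start in Sele and 14 bases after it in Icam1, and 13.6% of promoters hold it. GAGGAA, letters of the ETS kind, occurs 3 times in Itgam and once in Sele (not capitalised), and 28.3% of promoters hold it. The motifs were picked with the sequences in view, and a match is a description only.

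The deposited values are called signal below. Each is a whole barcode count times 1 factor for the library. Counts over all genes lay between 99297 (littermate 2) and 682046 (Merkel het CLE 1), and CLE 1, with 134994, was the other low library. The background threshold of a library is the mean + 2 SD of its 8 negative control probes. It was 106 units in CLE 1 and 116 units in littermate 2, against 17.6 to 53.2 units in the other 10, so weak genes are hard to read in those libraries. Where background was subtracted, the mean of the library's negative controls was taken off, and any result under 1 unit was set to 1 unit. Levels of different genes are not compared, since each probe has its own efficiency. No marker of Merkel cells is on the panel and Tslp is the only epidermal one, so these parts of the tissue were not checked.

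Sele, the selectin of inflamed endothelium, had its widest spread in Merkel het CLE skin. Its signal was 258, 42.1, 136 and 46.6 units in Merkel het CLE 1 to 4, against 44.5, 24.7, 39.1 and 22.0 in CLE 1 to 4. In littermates it was 27.7, 93.0, 27.3 and 35.1. All 4 Merkel het CLE libraries were above background, whereas CLE 1, CLE 2 and littermate 2 were below it, and the value of 93.0 is 23 barcodes times a large factor. Merkel het CLE 1 and 3 stood above every other library, and the groups overlapped in each comparison. The log2 difference was 1.18 ± 0.59 (SE) between Merkel het CLE and littermates, with an adjusted p of 0.207 in limma. Against CLE it was 1.52 ± 0.59, with an adjusted p of 0.203, and between CLE and littermates -0.34 ± 0.59, with an adjusted p of 0.716. Without Merkel het CLE 1 the first of these was 0.68. Subtracting the background moved the 3 differences to 1.83, 4.24 and -2.41, with adjusted p of 0.272, 0.133 and 0.169. In CLE 1 and CLE 2 Sele was under the negative control mean and was set to 1 unit in that step. The values 4.24 and -2.41 depend on that floor and are not measured sizes.

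Selplg, which encodes the selectin ligand on leukocytes, could not be measured. Its 5 to 17 barcodes per library gave 5.72, 9.79, 7.73 and 9.15 units in Merkel het CLE mice, 38.9, 22.2, 13.97 and 5.80 in CLE mice and 16.8, 20.2, 13.2 and 8.47 in littermates. All 12 were under the threshold of their library, so no order between the groups can be read.

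Vcam1, the ligand of VLA-4, was the only endothelial member whose CLE and littermate values did not overlap. It gave 76.6, 58.7, 136 and 32.9 units in Merkel het CLE mice, 161, 69.1, 53.1 and 114 in CLE mice and 31.6, 32.4, 33.4 and 31.5 in littermates. CLE 3, the lowest CLE library, lay above all littermates, while Merkel het CLE 4 fell within the littermate range. Littermate 2 was below background for this gene, so its 32.4 is not a measured level. The log2 difference was 1.04 ± 0.44 (adjusted p 0.135) between Merkel het CLE and littermates and 1.47 ± 0.44 (adjusted p 0.123) between CLE and littermates. Against CLE, Merkel het CLE had a difference of -0.43 ± 0.44, with an interval of -1.39 to 0.53. Subtracting the background gave 2.55 and 2.80 for the differences from littermates, with adjusted p of 0.105 and 0.115. Littermate 2 was set to the floor of 1 unit in that step, so these sizes depend on the floor.

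Icam1, the ligand of both LFA-1 and Mac-1, gave 265, 145, 278 and 146 units in Merkel het CLE mice, 339, 173, 161 and 362 in CLE mice and 174, 162, 173 and 117 in littermates. A pair of libraries in each disease group exceeded every littermate, and the other pair lay among them. The log2 difference was 0.36 ± 0.35 (adjusted p 0.505) between Merkel het CLE and littermates, 0.64 ± 0.35 (adjusted p 0.255) between CLE and littermates and -0.28 ± 0.35 (adjusted p 0.702) between Merkel het CLE and CLE.

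Icam2, a resting endothelial ligand of LFA-1, gave 180, 85.2, 192 and 69.5 units in Merkel het CLE mice, 128, 69.1, 152 and 102 in CLE mice and 118, 150, 113 and 113 in littermates. The groups overlapped throughout, and diseased libraries lay on both sides of the littermates. Its log2 difference was -0.03 (interval -0.86 to 0.80) between Merkel het CLE and littermates and -0.17 (interval -1.003 to 0.65) between CLE and littermates. Changes of up to about 2-fold in either direction are within these intervals.

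Pecam1, the junction molecule, gave 907, 310, 1004 and 284 units in Merkel het CLE mice, 306, 131, 524 and 303 in CLE mice and 338, 332, 380 and 333 in littermates. Merkel het CLE 1 and 3 were again the highest of the 12, and Merkel het CLE 2 and 4 were below every littermate. The log2 difference was 0.63 ± 0.48 (adjusted p 0.399) between Merkel het CLE and littermates, -0.29 ± 0.48 (adjusted p 0.697) between CLE and littermates and 0.91 ± 0.48 (adjusted p 0.327) between Merkel het CLE and CLE. Without Merkel het CLE 3 the difference from littermates was 0.32, and without Merkel het CLE 1 it was 0.37. The difference from CLE was 0.55 without CLE 2.

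Itgb2, the common beta2 chain, gave 521, 242, 444 and 147 units in Merkel het CLE mice, 1435, 395, 147 and 596 in CLE mice and 164, 154, 149 and 109 in littermates. In all, 3 libraries of each disease group exceeded all littermates, and Merkel het CLE 4 and CLE 3 did not. Its log2 difference was 1.08 ± 0.60 (adjusted p 0.245) between Merkel het CLE and littermates and 1.72 ± 0.60 (adjusted p 0.130) between CLE and littermates. Merkel het CLE against CLE gave -0.65 ± 0.60 (adjusted p 0.573).

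Itgam, the Mac-1 alpha chain carried by neutrophils and monocytes, gave 335, 131, 572 and 122 units in Merkel het CLE mice, 1334, 188, 89.4 and 249 in CLE mice and 85.9, 72.8, 110 and 83.5 in littermates. All Merkel het CLE values lay above all littermate values. CLE 3 was within the littermate range and CLE 1 far above the rest, and littermate 2 was below background. The log2 difference was 1.42 ± 0.72 (adjusted p 0.212) between Merkel het CLE and littermates and 1.64 ± 0.72 (adjusted p 0.166) between CLE and littermates.

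Itgal, the LFA-1 alpha chain of lymphocytes and other leukocytes, gave 115, 66.6, 91.9 and 55.8 units in Merkel het CLE mice, 311, 79.0, 34.9 and 116 in CLE mice and 52.3, 48.5, 48.6 and 30.3 in littermates. Every Merkel het CLE library again exceeded every littermate, though Merkel het CLE 4 did so narrowly and littermate 2 was below background. The log2 difference was 0.83 ± 0.54 (adjusted p 0.318) between Merkel het CLE and littermates and 1.17 ± 0.54 (adjusted p 0.187) between CLE and littermates. Subtracting the background gave 2.44 and 2.48 for these differences, with adjusted p of 0.181 and 0.170. Littermate 2 was set to the floor of 1 unit in that step, so these sizes depend on the floor too. Without CLE 1 the difference between CLE and littermates was 0.63 for Itgal, 0.88 for Itgam and 1.19 for Itgb2. In bulk skin, more leukocytes and more integrin RNA per leukocyte cannot be told apart.

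**Figure D1:**
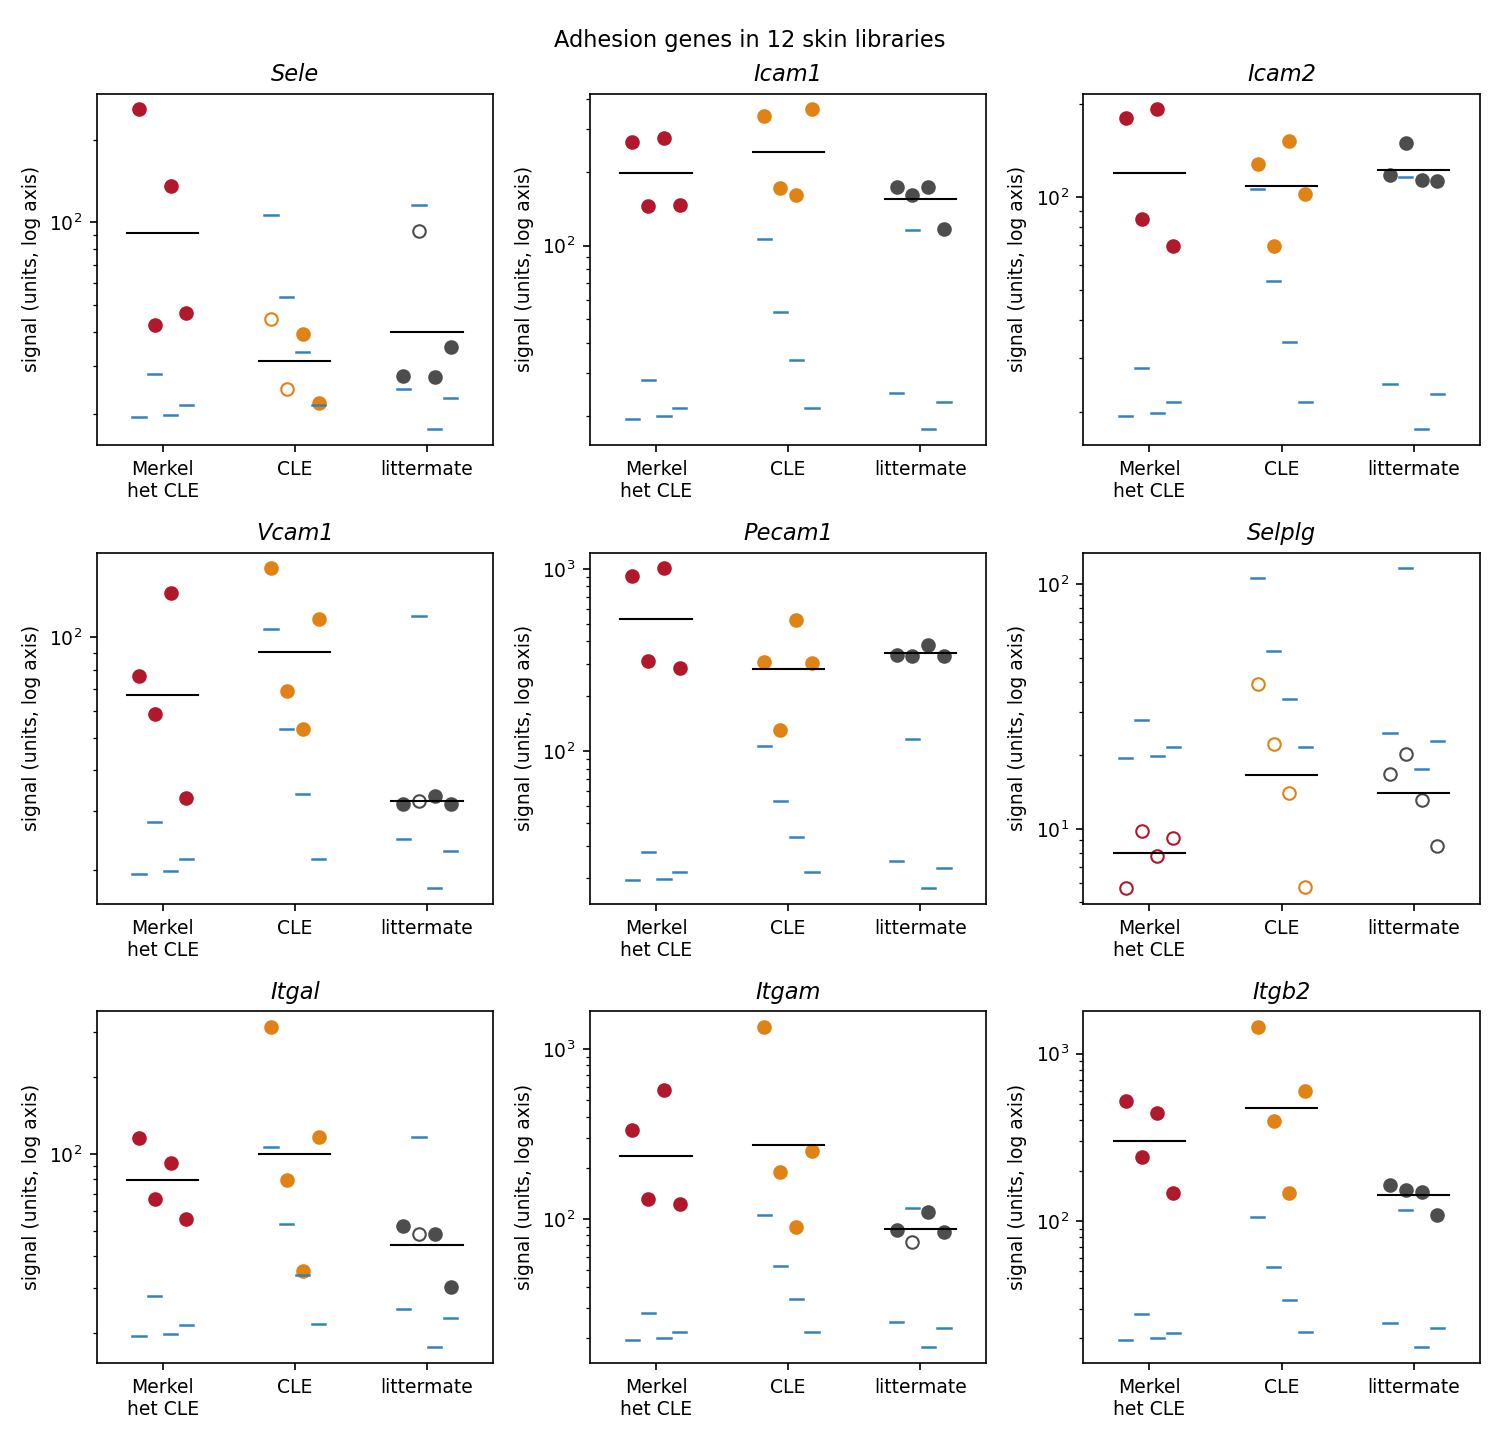
Signal of each of the 9 genes (log axis, units) in the 12 libraries, with Merkel het CLE, CLE and littermate from left to right and replicates 1 to 4 in order within a group. Filled points are above and open points below the background threshold of their library (short blue lines), and black lines are means on the log2(signal + 1) scale; the 4 littermates lie close together for Pecam1 and Vcam1, while diseased libraries spread widely.

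No member passed an adjusted p of 0.05 in limma in any comparison. For Merkel het CLE against littermates the count was 0 of 8, where 11.8% of the 451 tested genes passed; 1 of the 8 (Vcam1) had an unadjusted p under 0.05, beside 29.7% of tested genes. Of the members edgeR called 1 and DESeq2 3, beside 87 and 142 genes in all. Between CLE and littermates it was 0 of 8, where 0% of tested genes passed; 3 (Vcam1, Itgb2 and Itgam) had an unadjusted p under 0.05, beside 26.6% of tested genes. There edgeR called 0 members and DESeq2 3, beside 1 and 94 genes in all. For Merkel het CLE against CLE it was 0 of 8, where 0.222% of tested genes passed; Sele alone had an unadjusted p under 0.05, beside 19.3% of tested genes, and edgeR called 0 members and DESeq2 1, beside 0 and 31 genes in all.

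The direction of the members can be set beside that of all tested genes. Against littermates, 7 of 8 members were positive in Merkel het CLE skin with a median log2 difference of 0.94, beside 51.0% of all tested genes and a median of 0.01. In CLE skin 5 of 8 were positive with a median of 0.91, beside 72.5% and 0.35 for all genes. Between Merkel het CLE and CLE, 3 of 8 were positive with a median of -0.25, beside 31.0% and -0.26 for all genes. The 2 comparisons with littermates share the same 4 littermate libraries.

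Groups that did not overlap were also counted. Of the 8 members, 2, Itgal and Itgam, did not overlap between Merkel het CLE and littermates, where 30.6% of tested genes did not. One of 8, Vcam1, did not overlap between CLE and littermates, where 11.1% of tested genes did not. For Merkel het CLE against CLE it was 0 of 8, where 7.98% of tested genes did not overlap. These shares are near those of the panel as a whole.

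**Figure D2:**
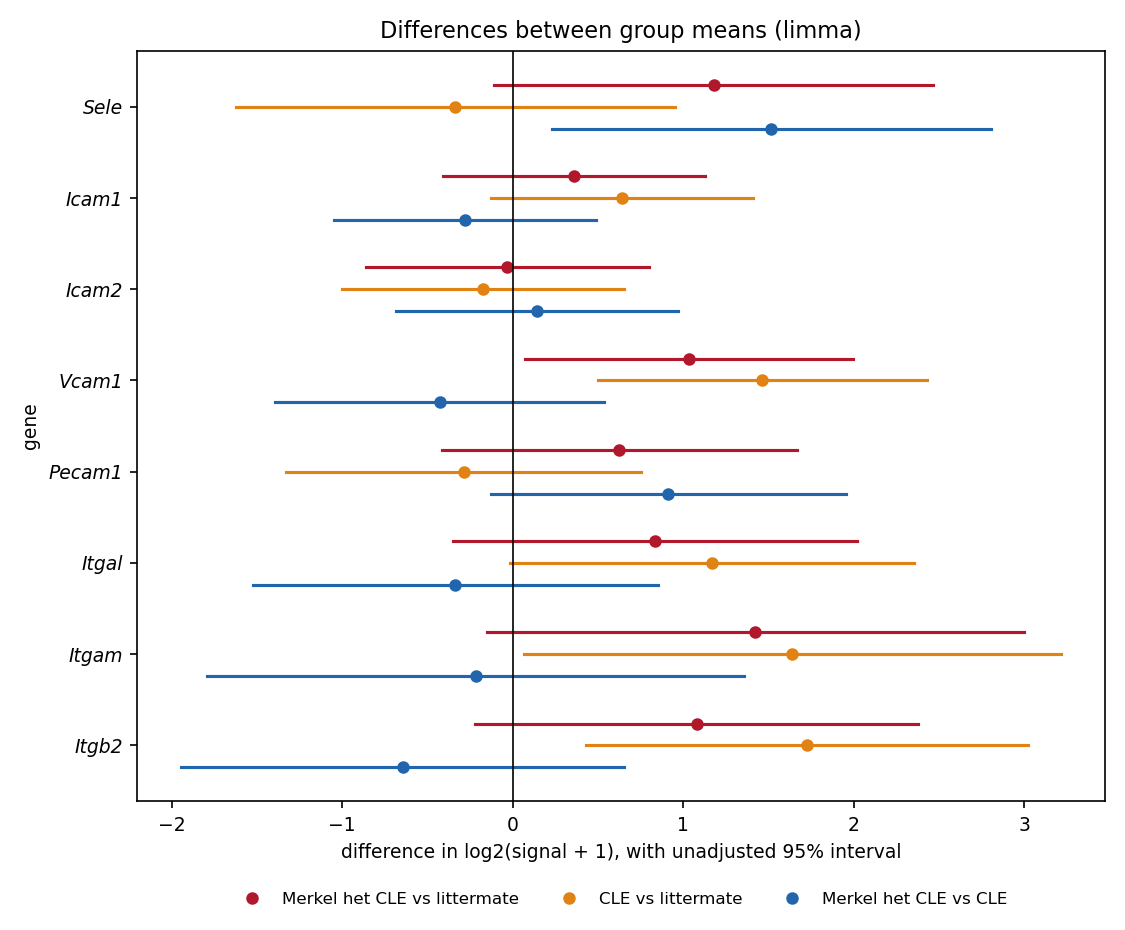
Log2 differences between group means (x axis, log2(signal + 1) units) of the 8 tested genes (rows), with 95% intervals from limma not adjusted for multiple tests. Vcam1 and the integrins lie to the right of 0 against littermates in both disease groups, and Sele and Pecam1 lie to the right of 0 for Merkel het CLE against CLE, with no adjusted p under 0.05.

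With both disease groups set against littermates, Vcam1 was nearest the threshold. Its log2 difference was 1.25 ± 0.38, with an adjusted p of 0.0580 in limma. Itgb2 followed at 1.40 ± 0.52 (adjusted p 0.0872), then Itgam at 1.53 ± 0.63 (adjusted p 0.113) and Itgal at 1.00 ± 0.47 (adjusted p 0.165). The count was 0 of 8 where 10.2% of tested genes passed, with 3 of 8 at an unadjusted p under 0.05 beside 32.4% of tested genes. Here edgeR called 2 members and DESeq2 4, beside 91 and 136 genes in all. These counts depended on single libraries. Without CLE 3, which had a score of 1, Vcam1 (adjusted p 0.0164), Itgal (0.0267), Itgam (0.0316) and Itgb2 (0.0110) passed in this comparison, while the count over all genes went to 131, against 46 with it. The same 4 genes passed between CLE and littermates without it, with log2 differences of 1.72, 1.67, 2.18 and 2.28 and adjusted p of 0.0192, 0.0218, 0.0357 and 0.00986, while the count over all genes was 138, against 0 with it. Without Merkel het CLE 4, Vcam1 passed in the pooled comparison (adjusted p 0.0453).

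Skin disease score was set against the genes in the 8 diseased mice, with a term for group. All 8 slopes were positive, where 62.7% of tested genes had a positive slope. The slope was 0.86 log2 units per score unit for Itgb2, 0.82 for Itgam, 0.81 for Itgal and 0.54 for Icam1. Single CLE libraries moved the integrin slopes. Without CLE 3 they were 0.49 for Itgb2, 0.46 for Itgam and 0.49 for Itgal, without CLE 4 they were 1.30, 1.55 and 1.29, and without CLE 1 they were 0.60, 0.38 and 0.53 for the same genes. Pecam1 at 0.18 and Icam2 at 0.10 were near 0. The count was 0 of 8 where 0% of tested genes passed. At an unadjusted p under 0.05 it was 0 of 8, beside 4.43% of tested genes. Every member had an adjusted p of at least 0.718 in limma. At a score of 1, Itgb2 was 395 and 147 units in CLE 2 and CLE 3, and at a score of 3 it was 521 units in Merkel het CLE 1 and 596 units in CLE 4. Its highest value, 1435 units, was in CLE 1, at a score of 2.5.

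**Figure D3:**
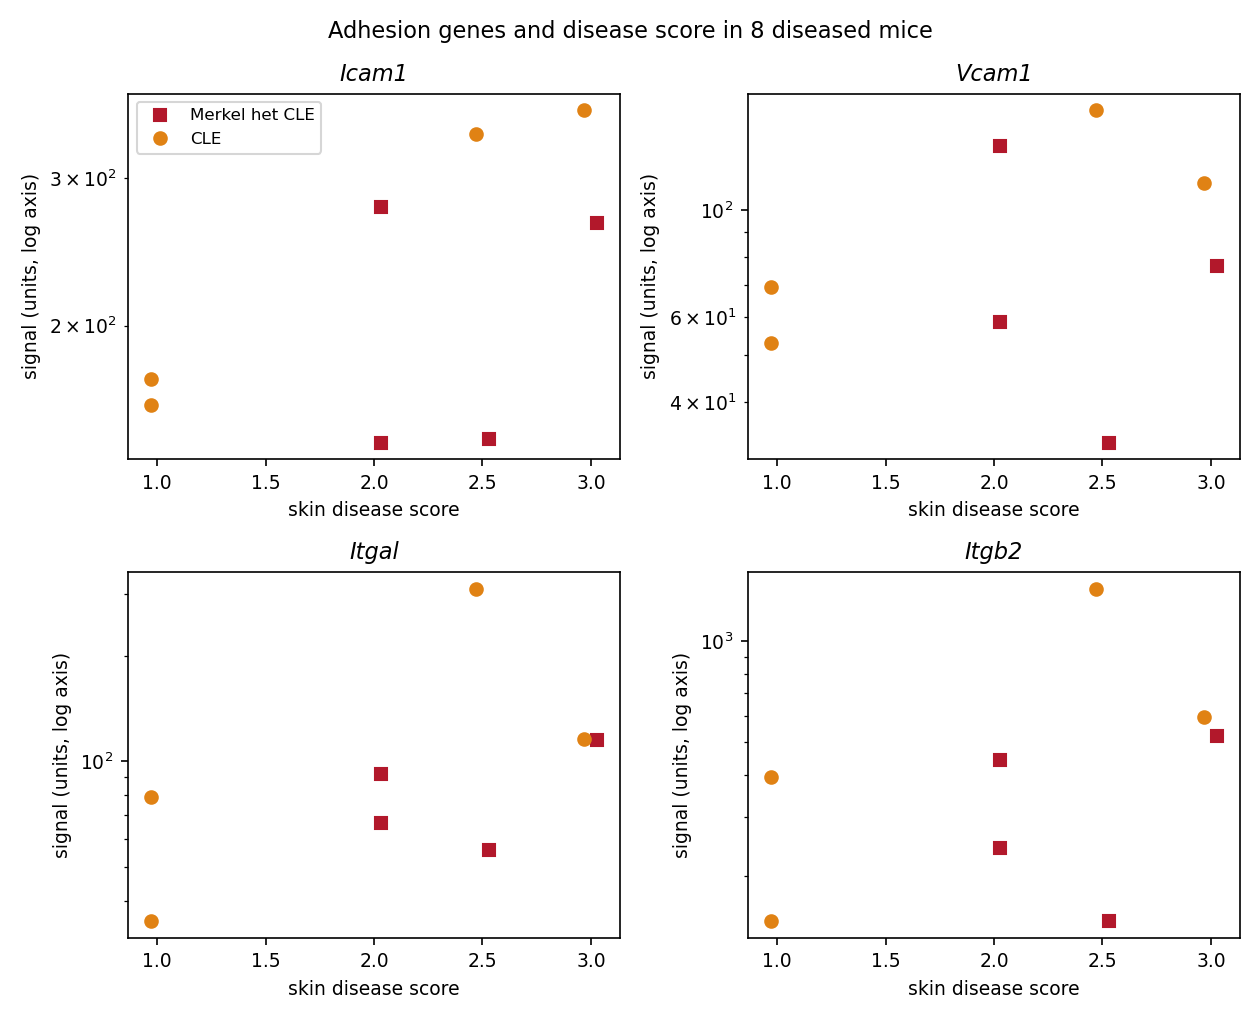
Signal of Icam1, Vcam1, Itgal and Itgb2 (log axis, units) against skin disease score in the 4 Merkel het CLE mice (squares) and 4 CLE mice (circles), with points of the groups set slightly apart along the x axis. For Itgb2 the pair at a score of 2.5 lies far apart, with Merkel het CLE 4 at 147 units and CLE 1 at 1435, and the pair at a score of 3 lies close, with Merkel het CLE 1 at 521 and CLE 4 at 596.

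Endothelial genes were next set against each other within a library, where the factor of the library cancels. The log2 ratio of Icam2 to Pecam1 was -2.33, -1.87, -2.38 and -2.03 in Merkel het CLE mice, against -1.26, -0.92, -1.78 and -1.57 in CLE mice and -1.52, -1.15, -1.74 and -1.56 in littermates. All 4 Merkel het CLE values lay below all 8 others. The mean difference was -0.77 ± 0.22 between Merkel het CLE and CLE and -0.66 ± 0.18 between Merkel het CLE and littermates. With a library left out or the background subtracted these stayed between -0.90 and -0.59 and between -0.75 and -0.54. Icam2 was thus lower relative to Pecam1 in Merkel het CLE skin, while neither gene alone passed its test. Among ratios of all pairs of tested genes, 35.9% did not overlap between Merkel het CLE and littermates. Between Merkel het CLE and CLE 5.66% did not.

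Vcam1 relative to Pecam1 was higher in CLE skin than in littermate skin. The log2 ratio was -0.92, -0.92, -3.30 and -1.41 in CLE mice and -3.42, -3.36, -3.51 and -3.40 in littermates, with a mean difference of 1.78 ± 0.57. CLE 3 missed the littermates by a narrow margin, and littermate 2 was below background for Vcam1. Subtracting the background gave a difference of 3.18, which depends on the floor of 1 unit to which Vcam1 in littermate 2 was set. In Merkel het CLE mice the ratio was -3.57, -2.40, -2.89 and -3.11, which overlapped both other groups.

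Among the integrins, Itgal relative to Itgb2 was lower in CLE skin. The log2 ratio was -2.20, -2.32, -2.07 and -2.36 in CLE mice and -1.65, -1.66, -1.61 and -1.85 in littermates, a mean difference of -0.55 ± 0.08. Subtracting the background turned this difference to 0.59, and Itgal was below background in littermate 2. The ratio of Itgam to Itgb2 overlapped in all 3 comparisons, with mean differences of 0.35, -0.08 and 0.43.

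There were 8 such ratios. Groups did not overlap for 1 of 8 between Merkel het CLE and littermates, where 35.9% of the ratios of all 101475 pairs of tested genes did not overlap. They did not overlap for 2 of 8 between CLE and littermates, where 12.4% of all pairs did not, and for 1 of 8 between Merkel het CLE and CLE, where 5.66% did not.

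**Figure D4:**
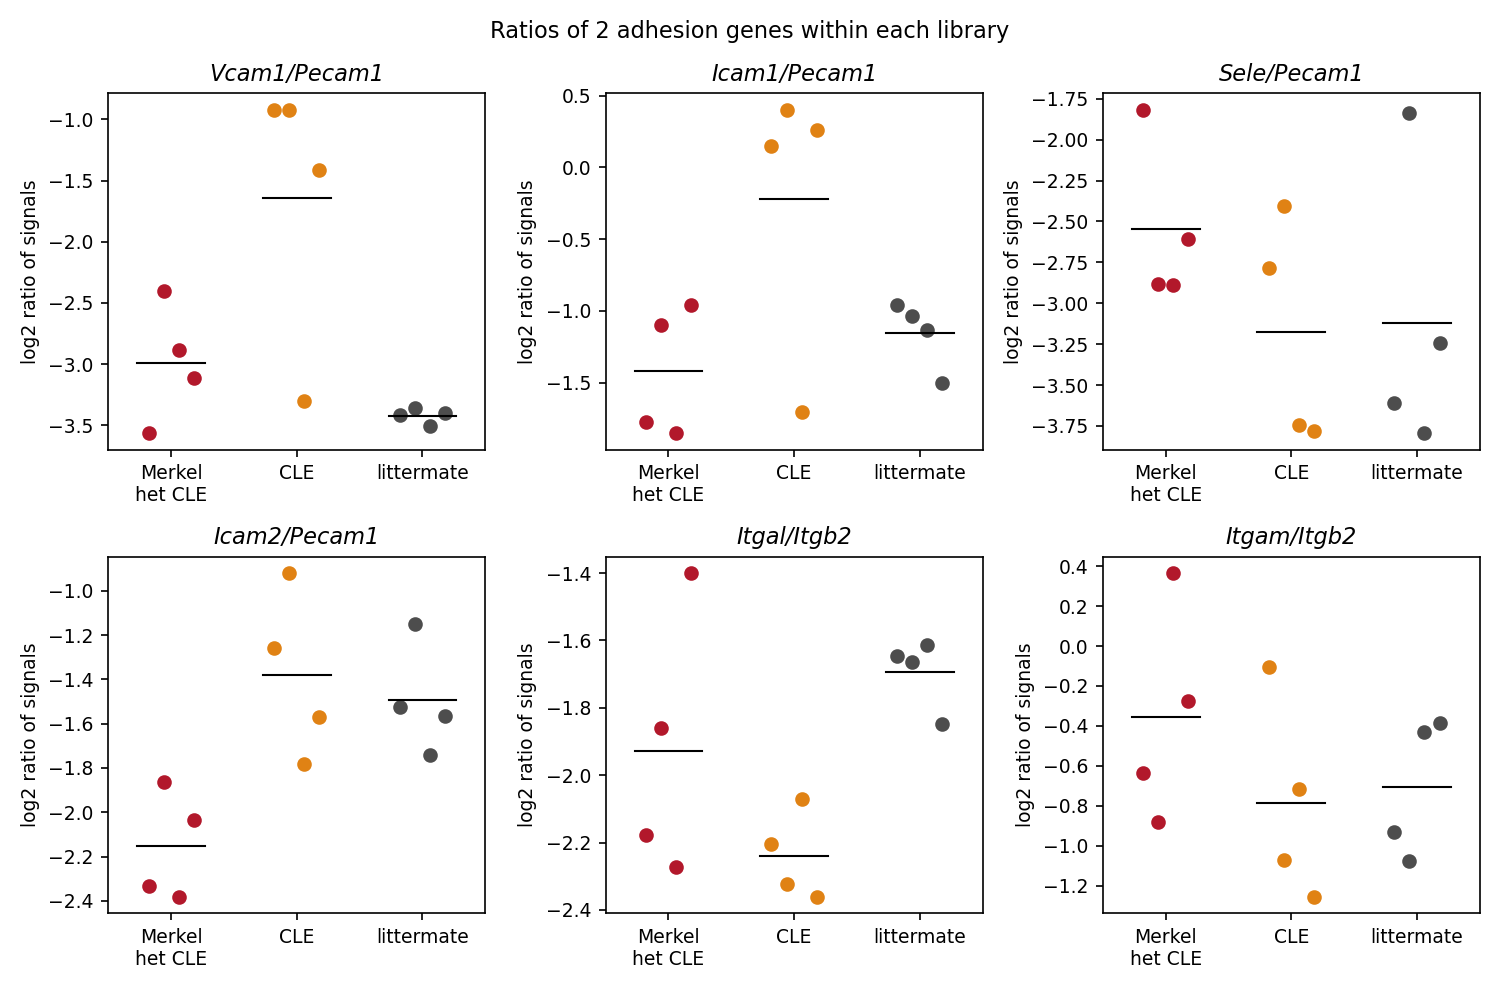
Log2 ratio of the signals of 2 genes in each library (y axis), for 6 of the 8 pairs, with Merkel het CLE, CLE and littermate from left to right and black lines for group means. The 4 Merkel het CLE libraries lie below the other 8 for Icam2/Pecam1.

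Over the 12 libraries the members fell roughly into 2 sets by how they moved. Icam1 and Vcam1 followed the integrins: Pearson's r of the log2 signal was 0.92 between Vcam1 and Itgb2, 0.91 between Vcam1 and Itgam and 0.88 between Icam1 and Itgb2. Neither followed Pecam1, with r of 0.24 for Vcam1 and 0.31 for Icam1. Pecam1 instead went with Icam2 (r 0.85) and Sele (r 0.76), and was near 0 with Itgal (r 0.05). Over the 8 diseased libraries alone, r was 0.89 between Vcam1 and Itgb2 and 0.90 between Icam2 and Pecam1. Over the 10 libraries without CLE 1 and littermate 2 these were 0.90 and 0.92. The split was less clear for Sele there, with r of 0.65 to Itgam and 0.67 to Icam2, and Pecam1 had r of 0.49 to Itgam. By rank over all 12 libraries, Sele and Pecam1 had a Spearman's rho of 0.43. All pairs share the library and its factor, and the values are a description.

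**Figure D5:**
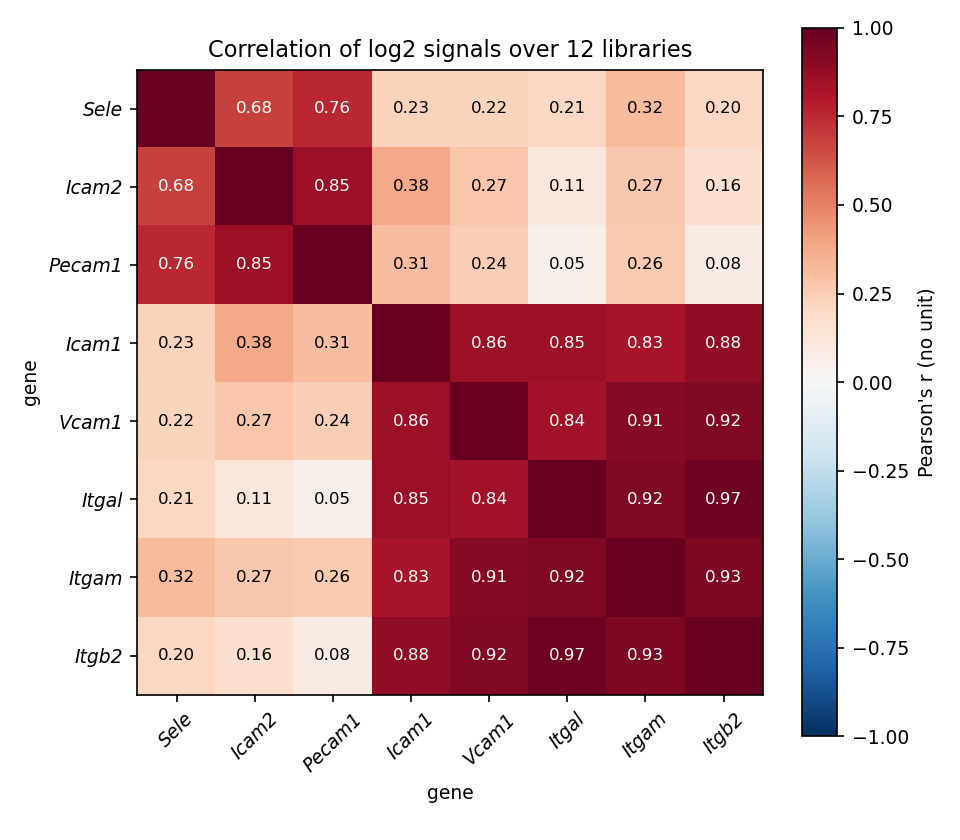
Pearson's r (colour and printed value) of log2(signal + 1) between the 8 tested genes over 12 libraries. Sele, Icam2 and Pecam1 form the upper left set and Icam1, Vcam1 and the integrins the lower right set.

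Over all tested genes, the genes most like each member were as follows. Itgal and Itgb2 were nearest to each other (r 0.97). Itgam was nearest to Clec5a, a myeloid receptor (r 0.98), and Cd81 (r 0.96). Vcam1 was nearest to Bst1 (r 0.97) and Icam1 to Il10ra, an interleukin-10 receptor chain (r 0.94), and Fcgr4, an Fc receptor, was second for both (r 0.95 and 0.92). Pecam1 was nearest to the chemokine gene Cxcl12 (r 0.95) and to Cdh5, the endothelial cadherin (r 0.89). Sele was nearest to the inflammatory genes Il6 (r 0.85) and Cxcl1 (r 0.83), and Icam2 came second with Tnfsf12 (r 0.81) after Pecam1. Il6 was above background in 0 of 4 littermates and 2 of 4 CLE libraries, and Cxcl1 in 2 and 3. Among Merkel het CLE libraries Il6 had a median of 146 units and a top of 1564, and Cxcl1 226 and 2399. These 2 r values thus rest on few readable libraries. Each r is over the same 12 libraries.

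Markers of the cells that carry these genes were looked at beside them. The summed signal of 4 endothelial markers, 2 of them members, was 1237 to 3951 units in Merkel het CLE mice, 701 to 2325 in CLE mice and 2291 to 3037 in littermates. Cd34 alone gave 707 to 2390, 454 to 1766 and 1594 to 2325 units in these groups. Cdh5 had a log2 difference of 1.29 ± 0.50 between Merkel het CLE and CLE, and Cd34 one of -1.01 ± 0.42 between CLE and littermates, with adjusted p of 0.203 and 0.158. The leukocyte markers Ptprc and Cd53 summed to 383 to 1067 units in Merkel het CLE mice, 344 to 2146 in CLE mice and 303 to 483 in littermates. The 5 neutrophil markers on the panel summed to 9834 to 61021 units in Merkel het CLE mice, 1228 to 236327 in CLE mice and 122 to 503 in littermates. The highest CLE values were 139994 units for S100a8 and 93820 for S100a9, against 1540 for Cxcr2 and 801 for Csf3r. The top of this sum is thus mainly S100a8 and S100a9. The 8 macrophage and monocyte markers on the panel summed to 2569 to 10829 units in Merkel het CLE mice, 1950 to 16915 in CLE mice and 1739 to 3260 in littermates. Of 7 tested, 7 were positive against littermates in each disease group, with median log2 differences of 1.32 in Merkel het CLE and 1.48 in CLE, and 0 passed the test. All 4 tested neutrophil markers passed as higher in Merkel het CLE than in littermates, where 11.8% of all tested genes passed. S100a9 rose by 7.11 ± 1.47 on the log2 scale (adjusted p 0.0246), Cxcr2 by 4.10 ± 1.14 (adjusted p 0.0442) and Csf3r by 2.88 ± 0.84 (adjusted p 0.0463). Which cells made the S100a8 and S100a9 RNA was not tested. Of 7 T cell markers 4 passed as lower, Cd3e by 1.95 ± 0.34 (adjusted p 0.0114), and 2 were positive. In CLE skin all 4 neutrophil markers were also positive against littermates, with a median log2 difference of 4.19. There 4 of 7 T cell markers were positive, with a median of 0.20. In CLE skin 0 of either list passed, where 0% of tested genes did. The part of these cell types in the integrin and endothelial values was not tested.

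Other adhesion genes on the panel were read from wider lists. None of 9 tested integrins or 10 tested immunoglobulin-family and junction genes passed between Merkel het CLE and littermates, where 11.8% of tested genes did. The nearest were Itga5, the fibronectin receptor alpha chain, at 1.26 ± 0.41 (adjusted p 0.0620) and Thy1 at 1.63 ± 0.57 (adjusted p 0.0783).

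Cytokine genes that induce endothelial adhesion molecules gave 1 call of 7 tested between Merkel het CLE and littermates. Over all tested genes 11.8% passed in this comparison. Il1b rose by 4.62 ± 1.17 on the log2 scale (adjusted p 0.0323), with 172 to 2151 units in Merkel het CLE mice and 18.2 to 45.6 in littermates. Of 9 tested receptors for such cytokines, Ifngr2 fell by 0.90 ± 0.25 (adjusted p 0.0414), with 301 to 506 units in Merkel het CLE mice and 604 to 858 in littermates. Most of that list went the other way, with 7 of 9 positive and a median log2 difference of 0.28. Of 10 tested NF-kB genes, Bcl3 rose by 2.00 ± 0.54 (adjusted p 0.0399), with 94.2 to 215 units in Merkel het CLE mice and 25.4 to 52.6 in littermates. Only 1 of the 10, Bcl3 itself, was positive, and the median of that list was -0.16. Over all tested genes 51.0% were positive in this comparison. None of these lists had a call between CLE and littermates, where 0% of tested genes passed. The same held between Merkel het CLE and CLE, where 0.222% passed. In CLE skin the log2 differences from littermates were 3.35 ± 1.17 for Il1b, -0.73 ± 0.25 for Ifngr2 and 1.53 ± 0.54 for Bcl3. Each had an adjusted p of 0.130 in limma.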

How the data were processed

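The deposited values were signal values for 561 gene probes and 14 control probes of the NanoString panel. Per the labels, RNA was extracted from skin and probes were labelled by the maker's protocol; the sources used here do not state how signal was normalized. From the deposited signal, a whole count times 1 factor per library (0.715 to 5.56) was recovered for 100% of values within 0.02 units, and the control rows were whole counts. The 9 members and all lists were chosen with earlier results of these data known. Of the 561 probes, 549 were named through RefSeq identifiers. Genes above the mean + 2 SD of the negative controls in at least 4 of 12 libraries were tested, leaving out 12 reference genes and 98 low genes. The test was limma 3.58.1 in R 4.3.3 on log2(signal + 1), with 3 group means, a variance trend and Benjamini-Hochberg adjustment over 451 genes. Named genes were all members, the 2 genes most correlated with each, and list genes past the threshold (at most 4) or, with none, up to 2 with the smallest unadjusted p. edgeR 4.0.16 and DESeq2 1.42.0 were run on the recovered counts. The limma step was tested on simulated data. Replicates were numbered in accession order; each is 1 mouse.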

Additional observations from a re-analysis of the deposited data

Results flagged for a closer look

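In 4 of 27 sets of 4 libraries (each of the 9 genes in each of the 3 groups), 1 library stood far from the other 3; chance gives about 1 in 20. Itgam was 1334 units in CLE 1, where the other CLE libraries had 89.4 to 249 units. Sele was 93.0 units in littermate 2, below the background threshold of that library and above the 27.3 to 35.1 units of the other littermates. Icam2 was 150 units in littermate 2, against 113 to 118 units in the other 3. Pecam1 was 380 units in littermate 3, against 332 to 338 units in the others. CLE 1 and littermate 2 are the 2 libraries with the fewest barcodes, and the part of depth in these values was not tested.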

How the results depend on the processing

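Of 1012 alternative values of the 8 tested members, 931 kept their direction and side of the threshold, 37 kept their direction and passed it, and 44 turned in direction; none of the 44 passed. The number of members past the threshold, 0 in limma, was 1 with edgeR, 3 with DESeq2 and 6 with array weights between Merkel het CLE and littermates, and 0 with background subtraction, pseudocount 16 or the replicate block. Between CLE and littermates it was 3 with DESeq2 and 2 with array weights, and 0 to 4 with a library left out, the 4 without CLE 3. For Merkel het CLE against CLE it was 1 with DESeq2. For both disease groups against littermates it was 1 after median centring, 1 after quantile normalization, 2 with edgeR, 4 with DESeq2 and 4 with array weights, and 0 to 4 with a library left out.

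Over all genes, 53 passed between Merkel het CLE and littermates. This count was 85 after median centring, 80 after quantile normalization, 31 with no filter, 23 with genes above background in all libraries, 34 with pseudocount 16, 87 with edgeR, 142 with DESeq2, 185 with array weights and 121 with only the groups compared. It was 0 in TLR9ko/ko libraries alone and 0 without K14Cre+ littermates, where fewer libraries were fitted, and 2 to 94 with a library left out. Between CLE and littermates the 0 became 2 after median centring, 9 after quantile normalization, 1 with background subtraction, 1 with edgeR, 94 with DESeq2 and 108 with array weights, and 0 to 138 with a library left out, the 138 without CLE 3. Between Merkel het CLE and CLE the 1 became 7 on reference genes, 31 with DESeq2 and 3 without CLE 1 and littermate 2, and 0 under median centring, quantile normalization, no filter, all libraries above background, background subtraction, edgeR, array weights, only the groups compared, TLR9ko/ko alone, no K14Cre+ littermates and the score as covariate; it was 0 to 28 with a library left out. For both disease groups the 46 became 91 after median centring, 85 after quantile normalization, 12 with genes above background in all libraries, 11 with pseudocount 16, 91 with edgeR, 136 with DESeq2, 196 with array weights, 0 in TLR9ko/ko alone, 0 without K14Cre+ littermates, 29 with the replicate block and 4 without CLE 1 and littermate 2, and 0 to 131 with a library left out, the 131 without CLE 3. For the score, DESeq2 gave 7. The cause was not tested.

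Directions that turned were of differences or slopes between -0.34 and 0.42 in the limma fit above. The largest turned value was 0.54, for Itgam between Merkel het CLE and CLE. Between Merkel het CLE and littermates, Icam1 was -0.024 with quantile normalization, and Icam2 was 0.066 with background subtraction, 0.039 with edgeR, 0.026 with DESeq2, 0.28 with array weights and 0.065 without CLE 1 and littermate 2, and -0.26 to 0.23 with a library left out. Between CLE and littermates, with a library left out, Sele was -0.51 to 0.064, Icam2 -0.34 to 0.039 and Pecam1 -0.58 to 0.080. Between Merkel het CLE and CLE, Itgal was 0.21 and Itgam 0.54 without CLE 1 and littermate 2, and Itgam 0.046 with array weights; with a library left out Icam2 was -0.082 to 0.40, Itgal -0.83 to 0.21 and Itgam -0.75 to 0.54, where leaving out CLE 1 alone turned Itgal. For both disease groups, Sele was -0.047 with quantile normalization and -0.29 with background subtraction, Pecam1 -0.24 and -0.11 after median centring and quantile scaling, and Icam2 -0.22 to 0.027 with a library left out. The -0.29 for Sele depends on CLE 1 and CLE 2, which were set to the floor of 1 unit. For the score, Sele was -0.046 with median centring and -0.18 in TLR9ko/ko alone, and -0.14 to 0.69 with a library left out. Icam2 was -0.15 with median centring, -0.14 with quantile normalization, -0.078 with edgeR, -0.071 with DESeq2 and -0.053 in TLR9ko/ko alone, and -0.13 to 0.33 with a library left out. Pecam1 was -0.070, -0.032, -0.12, -0.11 and -0.024 under the same 5 settings, and -0.21 to 0.60 with a library left out.

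The replicate block used the number in each mouse's title, which the labels do not explain, and libraries of 1 number correlated at 0.213 in that fit; the block changed no call of a member. Among the tested members, Sele, Vcam1, Itgal and Itgam were below background in littermate 2, and Sele in CLE 1 and CLE 2, so they have no firm level in those libraries; littermate 2 and CLE 1 have the fewest barcodes.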
